A study of Mus musculus with 56 samples.

Results

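Mouse hearts collected at the end of the daily feeding window were compared between mice fed by day and mice fed by night. The comparison set the 4 DRF ZT12 libraries (daytime-restricted feeding) against the 4 NRF ZT24 libraries (nighttime-restricted feeding, the reference regimen), 8 of the 56 heart libraries of the series, and it covered the 13872 of 22864 genes listed whose TPM averaged 1 or more across the series. ZT is the zeitgeber time in hours after lights on. DRF mice had food in the light phase, so ZT12 closed their feeding window. NRF mice had food in the dark phase, so ZT24 closed theirs. The 8 hearts were therefore matched for feeding state and stood 12 h apart in the light-dark cycle. All mice were C57BL/6J females of 9 weeks, lit for 12 of every 24 h and given chow on their regimen for 7 days, and the labels name no transgene or drug. Another pair of groups of 4 libraries, NRF ZT12 and DRF ZT24, form the same ZT comparison at the end of the daily fast and share no library with the first.

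The circadian clock of a cell is a transcriptional loop. Arntl (BMAL1) pairs with Clock or Npas2, binds E-boxes in DNA and activates the Per, Cry and Nr1d genes. The PER and CRY proteins then repress ARNTL activity, the NR1D proteins repress the Arntl gene, and the receptor encoded by Rora activates it. Dbp, Tef and Hlf are PAR bZIP factors that are themselves driven by the loop and bind D-boxes, where Nfil3 competes with them. Clocks in peripheral tissues receive both light-driven signals from the brain and signals from feeding. In the heart the clock is known for rhythms in metabolism, ion channels and contractile genes. A food-matched comparison at opposite ZT asks which transcripts differ between the phases of the light-dark cycle when feeding state is held alike. All ZT12 libraries of the comparison are DRF and all ZT24 libraries are NRF, so within it light-dark phase and regimen cannot be told apart. In the comparison of fasted hearts the regimens are exchanged, with NRF at ZT12 and DRF at ZT24.

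The sequences in front of the clock genes are shown because the members of this loop gave many of the largest differences. In the 250 bases before RefSeq transcription starts (GRCm38.p6), E-boxes (CACGTG, identical on both strands), D-boxes (TTATGTAA, both strands) and heat shock elements (GAANNTTC, both strands) were searched. Of 32851 such windows, 6.02% held an E-box, 0.819% a D-box and 6.69% a heat shock element. Of the 19 genes of the clock lists that were tested, 16 had windows (21 in all). An E-box lay in windows of 5 genes (Bhlhe41, Ciart, Cry1, Per1 and Tef), a D-box in that of Per3, and a heat shock element in none. Among the other genes with the largest differences, Slc41a3 had an E-box (213 bases before its start). A match describes letters and is not a measured binding site. Capitals below mark the E-box of Per1 (first letter 166 bases before the start) and the 3 E-boxes of Ciart (116, 58 and 44 bases before it). They also mark the E-box in 1 window of Tef (138 bases before it) and the 2 D-boxes of Per3 (205 and 158 bases before it). Another window of Tef, not shown, holds an E-box 127 bases before its start. None of these motifs overlaps another.
Per1, chr11:69098699-69098948, plus strand: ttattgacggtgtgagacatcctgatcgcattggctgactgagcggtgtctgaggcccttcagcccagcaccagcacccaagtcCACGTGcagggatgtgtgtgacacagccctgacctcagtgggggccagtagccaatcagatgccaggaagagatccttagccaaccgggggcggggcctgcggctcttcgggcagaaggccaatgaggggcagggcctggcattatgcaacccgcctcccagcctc
Ciart, chr3:95882229-95882478, minus strand: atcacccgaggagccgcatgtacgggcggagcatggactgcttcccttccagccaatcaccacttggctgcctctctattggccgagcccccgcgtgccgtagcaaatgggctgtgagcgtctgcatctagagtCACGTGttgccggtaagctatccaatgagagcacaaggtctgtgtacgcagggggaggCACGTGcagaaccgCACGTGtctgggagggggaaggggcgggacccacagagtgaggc
Tef, chr15:81811164-81811413, plus strand: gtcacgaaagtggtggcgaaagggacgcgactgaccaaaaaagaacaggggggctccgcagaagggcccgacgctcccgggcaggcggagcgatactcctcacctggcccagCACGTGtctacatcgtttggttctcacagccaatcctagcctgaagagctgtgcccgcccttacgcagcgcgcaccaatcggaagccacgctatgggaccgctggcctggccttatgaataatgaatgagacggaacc
Per3, chr4:151044666-151044915, minus strand: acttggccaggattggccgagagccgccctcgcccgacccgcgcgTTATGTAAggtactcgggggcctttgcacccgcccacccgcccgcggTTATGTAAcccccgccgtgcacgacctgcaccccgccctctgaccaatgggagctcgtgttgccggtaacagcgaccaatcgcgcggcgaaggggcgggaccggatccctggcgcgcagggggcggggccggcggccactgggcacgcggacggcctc

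Depth and the share of mitochondrial reads did not separate the groups. Recovered reads ranged from 3.40e+07 to 4.91e+07 in the 4 DRF ZT12 libraries and from 3.62e+07 to 3.92e+07 in the 4 NRF ZT24 libraries (exact two-sided permutation p = 0.686), and mitochondrially encoded genes took 21.3 ± 1.7% and 20.9 ± 1.82% of the reads (SD, n = 4 each, exact permutation p = 0.714). Cardiomyocyte markers summed to 31334 to 38171 TPM and 33905 to 40633 TPM, while lung markers summed to at most 7.58 TPM. Of the skeletal muscle and thymus markers 1 each was listed, Actn3 at up to 1.92 TPM and Cd8a at up to 0.447 TPM. TPM, recomputed from the reads, is a level per length of transcript scaled to the same total in every library. No summed marker set passed the test after adjustment over the 19 measures, but sets at the smallest possible exact permutation p (0.0286) reached only an adjusted 0.181. The adjusted test could therefore hardly pass, and it does not show that composition was alike. Atrial cardiomyocyte markers summed to 1011 to 4748 TPM in DRF ZT12 and to 169 to 1407 TPM in NRF ZT24 (exact permutation p = 0.0571, adjusted 0.271), with overlap, and Bmp10, an atrial gene, reached 52.1 and 55.0 TPM in DRF ZT12 replicates 2 and 3 against at most 3.24 TPM in the other 6 libraries. White adipocyte markers summed to 24 to 73.7 TPM and 3.51 to 20.7 TPM, which did not overlap (exact permutation p = 0.0286, the smallest possible with 4 against 4, adjusted 0.181). Fibroblast markers (631 to 787 and 506 to 624 TPM) and nerve and Schwann cell markers (8.12 to 10.7 and 5.98 to 7.90 TPM) did not overlap either (exact permutation p = 0.0286 and adjusted 0.181 for each). In bulk RNA, fewer cells of a type and less RNA per cell cannot be told apart. By the 1000 most variable genes, 7 of the 8 libraries were most like their own group, and NRF ZT24 replicate 4 was most like NRF ZT0.

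A total of 721 genes differed between DRF ZT12 and NRF ZT24, 5.20% of the genes tested (limma, adjusted p under 0.05). Of these, 332 were higher in DRF ZT12 (2.39%) and 389 were lower (2.80%). Most differences were small. The median absolute log2 difference of the called genes was 0.46, 403 of them differed by less than 0.5, and 61 differed by at least 1 (42 higher and 19 lower). All log2 differences are on the log2(TPM + 1) scale, which understates the change of genes near 1 TPM. In 581 of the called genes the 4 libraries of one group all lay above the 4 of the other. Among all genes tested, 4.84% lay apart in this way with DRF ZT12 higher and 4.60% with DRF ZT12 lower. The median log2 difference of all genes was -0.0034. An unadjusted p under 0.05 was reached by 2497 genes. The count depended on the libraries and the scaling. It was 340 (192 higher, 148 lower) when only these 8 libraries entered and 1178 after median-of-ratios rescaling. Without DRF ZT12 replicates 2 and 3 together it was 212 (103 higher, 109 lower). It was 1325 (256 higher, 1069 lower) when NRF ZT0, the same clock time and regimen, stood in for NRF ZT24. It was 408, 439 and 473 without NRF ZT24 replicate 1, DRF ZT12 replicate 2 and DRF ZT12 replicate 3. Counts of gene lists given below for these settings are to be read beside these counts over all genes.

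**Figure D1:**
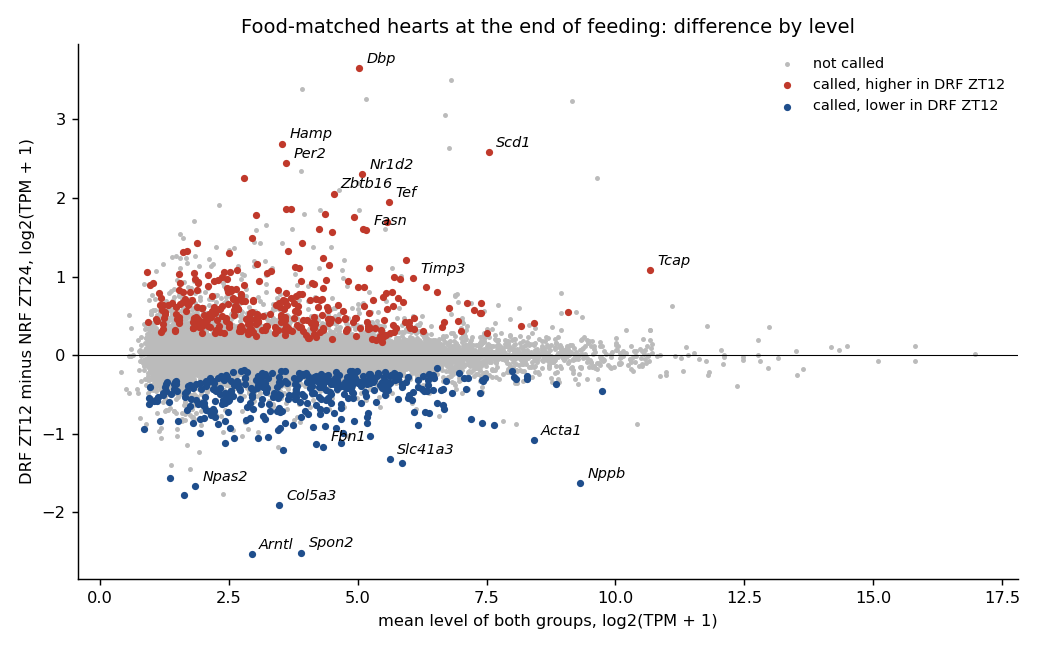
The difference DRF ZT12 minus NRF ZT24 (log2 of TPM + 1) is plotted against the mean level of both groups (log2 of TPM + 1), 1 point a gene for the 13872 genes tested. Red points are the 332 genes called higher and blue points the 389 called lower in DRF ZT12, and most called points lie within 1 log2 unit of 0.

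In the activating limb of the clock, 3 of the 5 genes tested were lower at ZT12 in fed hearts. Arntl (chr7:113207465-113314126, plus strand, GRCm38) stood at 1.32, 1.01, 1.65 and 1.09 TPM in the 4 DRF ZT12 libraries and at 13.9, 10.5, 11 and 13.3 TPM in the 4 NRF ZT24 libraries. The groups were far apart, at 1.27 ± 0.285 and 12.2 ± 1.69 TPM (SD, n = 4 each), a 9.59-fold lower level in DRF ZT12 (log2 difference -2.54 ± 0.23 SE, limma adjusted p = 4.53e-11). Npas2, the alternative partner of ARNTL, was 6.34-fold lower, at 0.707 ± 0.0602 against 4.48 ± 0.791 TPM (log2 difference -1.67, adjusted p = 2.73e-09). Clock was 1.74-fold lower (7.19 ± 0.482 against 12.5 ± 1.46 TPM, adjusted p = 4.63e-07). Rora, a nuclear receptor gene that activates Arntl, was slightly higher (6.41 ± 0.560 against 4.78 ± 0.712 TPM, log2 difference 0.36, adjusted p = 0.0251), a call lost without any 1 of 4 of the 8 libraries (adjusted p up to 0.111, without NRF ZT24 replicate 2), when these 8 libraries were fitted alone (0.0999) and against NRF ZT0 (0.0955). Of the 5 activators tested, 1 was thus higher and 3 were lower, beside 2.39% and 2.80% of all genes, with a median log2 difference of -0.72.

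In the repressing limb most genes were higher at ZT12 in fed hearts. Of its 10 genes, 7 were higher in DRF ZT12, beside 2.39% of all genes, and none was lower, with a median log2 difference of 1.22. Per3 (chr4:151003652-151044665) had the largest fold, at 12.2, 11.6, 7.53 and 10.4 TPM in DRF ZT12 against 1.59, 1.65, 1.33 and 0.957 TPM in NRF ZT24, a 7.55-fold difference (log2 difference 2.25 ± 0.18 SE, adjusted p = 2.08e-12). Per2 (chr1:91415982-91459324) was 7.03-fold higher, at 19.1, 19, 14.3 and 26.6 TPM against 3.06, 3.94, 2.24 and 1.99 TPM (adjusted p = 3.54e-10). Every DRF ZT12 library lay above every NRF ZT24 library for both genes. Per1, which also answers to glucocorticoids and stress, was 4.12-fold higher (19.5 ± 3.67 against 4.72 ± 1.66 TPM, adjusted p = 0.000699).

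The NR1D receptors, which silence Arntl, differed in the same direction. Nr1d2 (chr14:18204054-18239127) stood at 57.4, 58.6, 48.3 and 58.4 TPM in DRF ZT12 and at 12.0, 9.16, 9.79 and 11 TPM in NRF ZT24, 5.31-fold higher with no overlap (log2 difference 2.30 ± 0.19 SE, adjusted p = 2.08e-12). Nr1d1 was 3.43-fold higher (45.5 ± 2.25 against 13.3 ± 4.68 TPM, adjusted p = 2.34e-05). Its 3' end overlaps Thra on the other strand and no strand setting is given in the sources used here, so reads of the pair cannot be separated. The cryptochromes, partners of the PER proteins, were split. Cry2 was 1.66-fold higher (13.7 ± 1.48 against 8.24 ± 1.45 TPM, adjusted p = 2.34e-05), whereas Cry1, which peaks late in the clock cycle, measured 15.7 ± 2.46 against 20.1 ± 2.58 TPM and did not pass the test (adjusted p = 0.229). The E-box repressor Bhlhe41 was 1.62-fold higher (6.69 ± 0.810 against 4.12 ± 0.370 TPM, adjusted p = 0.0078). Its paralog Bhlhe40 (25.9 ± 5.96 against 16.5 ± 0.739 TPM, adjusted p = 0.118) and Ciart, a further repressor of ARNTL (3.43 ± 0.222 against 2.02 ± 0.843 TPM, adjusted p = 0.393), did not pass.

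The output factors gave the largest difference of the whole comparison among called genes. Dbp (chr7:45705088-45710203) stood at 58.4, 60.7, 54.3 and 63.7 TPM in DRF ZT12 and at 4.23, 4.83, 3.02 and 3.33 TPM in NRF ZT24. The spread within each group was narrow against a 15.4-fold difference (59.3 ± 3.98 against 3.85 ± 0.83 TPM, log2 difference 3.65 ± 0.42 SE, adjusted p = 3.88e-08). Dbp lies beside Sphk2 on the other strand, and reads shared by the pair cannot be separated. Tef was 3.96-fold higher (75.9 ± 6.82 against 19.2 ± 3.85 TPM, adjusted p = 2.08e-12) and Hlf 2.91-fold higher (20.9 ± 2.19 against 7.18 ± 0.722 TPM, adjusted p = 1.62e-09). Nfil3, their competitor at D-boxes, went the other way, at 15.2 ± 2.63 against 33.9 ± 3.30 TPM (log2 difference -1.12, adjusted p = 0.0027). All 4 output factors passed the test, 3 higher and 1 lower, beside 2.39% and 2.80% of all genes. The calls of Arntl, Npas2, Clock, the 3 Per genes, both Nr1d genes, Cry2, Dbp, Tef, Hlf and Nfil3 held without any 1 library and under each other setting in which the gene was tested.

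**Figure D2:**
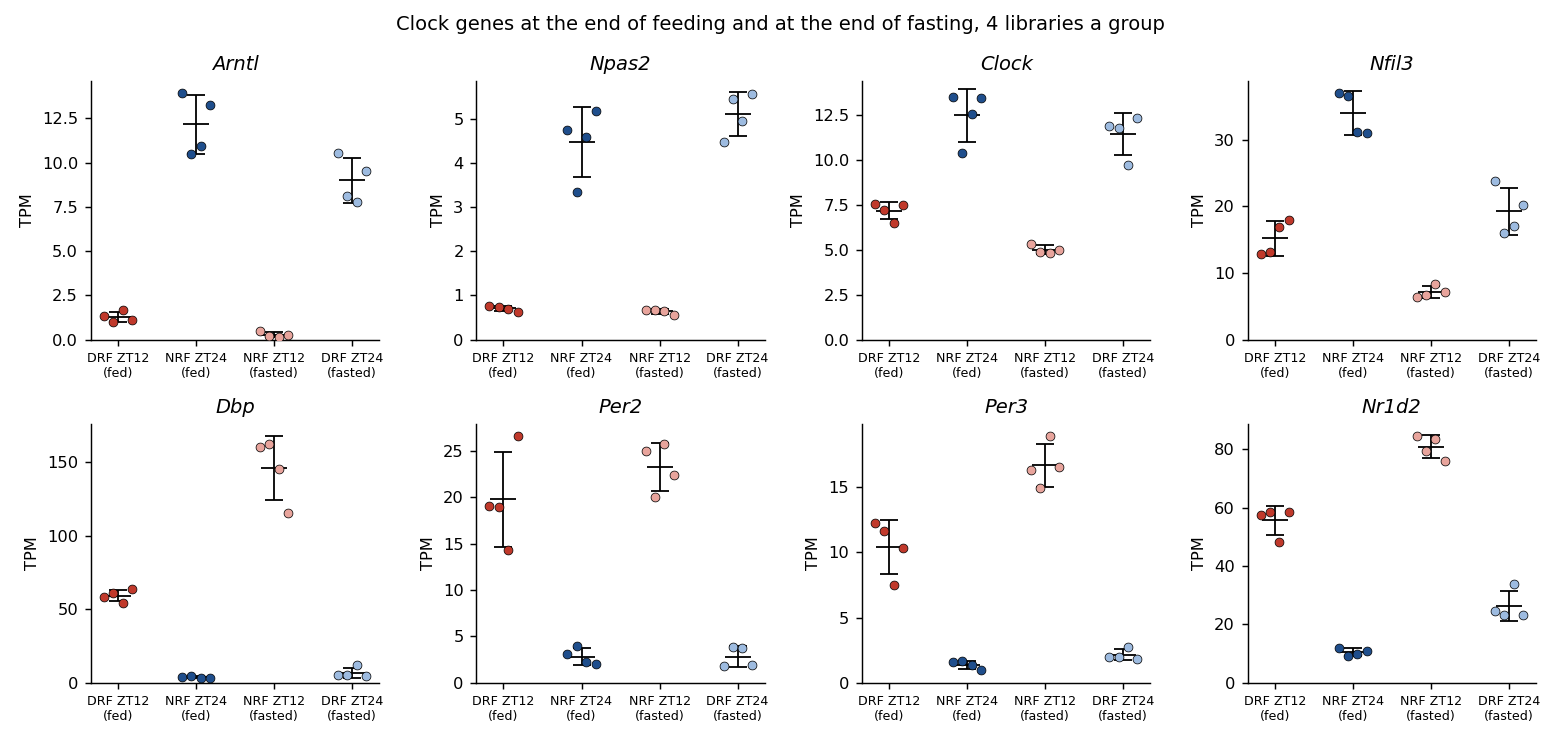
Levels of 8 clock genes in TPM (vertical axis, linear) are shown by library for the groups at the end of feeding (DRF ZT12, NRF ZT24) and at the end of fasting (NRF ZT12, DRF ZT24), with bars at the mean and SD of 4 libraries. Arntl, Npas2, Clock and Nfil3 are low and Dbp, Per2, Per3 and Nr1d2 are high at ZT12 in both feeding states, for example Dbp at 59.3 against 3.85 TPM when fed and 146 against 6.75 TPM when fasted.

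Among the 10 called genes with the largest higher and the 10 with the largest lower levels and no overlap of libraries, 8 belonged to the clock lists: Dbp, Per2, Nr1d2, Per3, Tef and Per1 among the higher ones and Arntl and Npas2 among the lower ones. Zbtb16, a transcription factor gene induced by glucocorticoids, was another of the higher ones and measured 40.3, 45.8, 23.5 and 35.8 TPM against 8.45, 7.07, 5.81 and 10.3 TPM, a 4.60-fold difference without overlap (log2 difference 2.05, adjusted p = 0.000341). Of the 12 glucocorticoid-responsive genes, 4 were higher and 1 lower, beside 2.39% and 2.80% of all genes, with a median log2 difference of 0.34. Without DRF ZT12 replicates 2 and 3, 2 were higher and 1 lower, and Tsc22d3 lost its call (adjusted p = 0.0532). Besides Zbtb16 and Per1, the higher ones were Tsc22d3 (GILZ), an anti-inflammatory mediator, at 74.6 ± 18.3 against 36.8 ± 4.20 TPM (adjusted p = 0.00163), and Fkbp5, a cochaperone of the glucocorticoid receptor. The lower one was Cdkn1a (p21), an inhibitor of the cell cycle, at 15.6 ± 3.22 against 30.4 ± 4.36 TPM (adjusted p = 0.00204). Per1 stands on this list and on the clock list.

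Several genes of the matrix stood among the largest lower ones. Spon2, a secreted matrix protein gene, stood at 1.94, 5.55, 3.43 and 2.66 TPM in DRF ZT12 and at 16.3, 15.2, 34.6 and 32.4 TPM in NRF ZT24, 7.25-fold lower (log2 difference -2.52 ± 0.37 SE, adjusted p = 1.19e-05). Col5a3, a fibrillar collagen chain, stood at 3.35, 3.91, 2.67 and 5.03 TPM against 19.1, 14.6, 18.3 and 14.4 TPM, 4.44-fold lower (log2 difference -1.91, adjusted p = 2.45e-11). Neither gene had overlapping libraries. Adamts4, a protease of matrix proteoglycans, was at 0.284 ± 0.124 against 2.81 ± 0.580 TPM (adjusted p = 2.94e-09), and Fam124b was at 0.394 ± 0.126 against 3.81 ± 0.618 TPM (adjusted p = 3.63e-08). Foxs1, a forkhead factor gene of perivascular cells, was 2.51-fold lower (adjusted p = 1.03e-06), and the magnesium transporter gene Slc41a3 was 2.55-fold lower (27.2 ± 5.69 against 69.6 ± 12.2 TPM, adjusted p = 6.15e-08). Tnfrsf12a, the receptor of the cytokine TWEAK, was 2.62-fold lower (adjusted p = 0.000353).

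Of the 19 genes on the collagen and matrix list, 6 were lower, beside 2.80% of all genes, and 1 was higher, with a median log2 difference of -0.29. Fbn1 (fibrillin 1) was at 11.6 ± 3.06 against 26.6 ± 2.95 TPM (log2 difference -1.16, adjusted p = 2.34e-05), and Col4a1, a basement membrane collagen chain, was at 142 ± 51.4 against 255 ± 43.2 TPM (log2 difference -0.89, adjusted p = 0.00434). The higher one was Timp3, an inhibitor of matrix proteases, at 88.9 ± 10.8 against 44.4 ± 3.07 TPM (log2 difference 0.98, adjusted p = 5.08e-07). The fibril collagen genes Col1a1, Col1a2 and Col3a1 did not pass the test (adjusted p = 0.553, 0.536 and 0.591). Fibroblast markers summed to 631 to 787 TPM in DRF ZT12 against 506 to 624 TPM in NRF ZT24. Of the 6, 1 was called, the proteoglycan gene Lum, which was higher. Dcn was at 340 to 412 TPM against 279 to 315 TPM without overlap, while Col1a1, Col1a2, Pdgfra and Tcf21 overlapped between the groups. Col1a1 and Col1a2 stand on both lists. Of 6 endothelial markers Kdr, a receptor of vascular growth factor, was called, lower, at 52.6 to 66.8 TPM in DRF ZT12 against 80.1 to 109 TPM in NRF ZT24, and the endothelial sums were 415 to 576 and 499 to 647 TPM. The part of these cells in the matrix differences was not tested. Fitted on these 8 libraries alone, 2 of the 19 were lower, and likewise 2 without DRF ZT12 replicates 2 and 3. Over all 13872 genes 148 and 109 were lower in these settings, in place of 389. The Col4a1 call was lost without DRF ZT12 replicate 3 (adjusted p = 0.0556).

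Of 14 genes of fatty acid synthesis, 6 were higher in DRF ZT12, with wide spread between libraries, and none was lower (median log2 difference 0.27), beside 2.39% of all genes higher. Scd1, the desaturase that makes oleate, stood at 317, 568, 273 and 124 TPM in DRF ZT12 and at 21.3, 46.9, 47.2 and 92.1 TPM in NRF ZT24. The groups did not overlap, but the highest NRF library came close to the lowest DRF library, and the 6.17-fold difference (log2 difference 2.58 ± 0.67 SE, adjusted p = 0.0141) carried a 95% interval of 1.23 to 3.94. Thrsp, a regulator of lipogenesis, was at 85.0 ± 31.9 against 35.4 ± 9.25 TPM (adjusted p = 0.00381). Fasn (fatty acid synthase) was at 53.9 ± 32.3 against 16 ± 7.02 TPM (adjusted p = 0.0367), and Elovl6, the elongase of palmitate, at 7.11 ± 3.27 against 2.21 ± 1.17 TPM (adjusted p = 0.019). Acly and Acaca, which supply acetyl-CoA and malonyl-CoA, were the other genes called higher, and Srebf1, Me1 and Scd2 were not called.

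Adipocyte markers were set beside these genes library by library. Adipoq, the adiponectin gene of adipocytes, measured 15.9, 32.7, 17.5 and 9.48 TPM in DRF ZT12 and 1.45, 6.43, 6.62 and 8.25 TPM in NRF ZT24, and Scd1, Fasn and Thrsp were, like Adipoq, highest in DRF ZT12 replicate 2 and lowest in replicate 4 among the DRF libraries. None of the 4 white adipocyte markers tested was called. Ucp1, the defining gene of brown adipocytes, measured 78.3 TPM in DRF ZT12 replicate 2 and 0 in DRF ZT12 replicate 4 and NRF ZT24 replicate 1. The part of adipocyte RNA in the lipogenic differences was not tested. Without DRF ZT12 replicates 2 and 3 none of the 14 genes was called, and fitted on these 8 libraries alone 2 were. The Scd1 call was lost without DRF ZT12 replicate 2 or NRF ZT24 replicate 1 (adjusted p = 0.0823 and 0.0819), that of Fasn without any 1 of 6 libraries (adjusted p up to 0.196, without DRF ZT12 replicate 2) and that of Elovl6 without any 1 of 4 (up to 0.118, without DRF ZT12 replicate 2).

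Hamp and Ahsg were also among the 10 largest higher genes. Hamp, which encodes the iron hormone hepcidin, stood at 8.14, 24.4, 34.8 and 10.3 TPM in DRF ZT12 and at 1.68, 2.40, 0.734 and 2.42 TPM in NRF ZT24, 10.7-fold higher (log2 difference 2.69 ± 0.81 SE, adjusted p = 0.0412). Ahsg, which encodes fetuin-A, was at 18.3 ± 7.49 against 4.01 ± 1.11 TPM (adjusted p = 0.00257), but it was not called against NRF ZT0 (log2 difference 1.15, adjusted p = 0.0632) or without DRF ZT12 replicates 2 and 3 (1.41, adjusted p = 0.182). The order of the DRF ZT12 libraries by Hamp (replicates 3, 2, 4 and 1) was that of the summed atrial markers. Between groups the order differed. NRF ZT24 replicate 4 had more atrial marker RNA than DRF ZT12 replicate 1 (1407 and 1011 TPM) and less Hamp (2.42 and 8.14 TPM). The part of atrial RNA in the Hamp difference was not tested. The Hamp call was lost without any 1 of 6 of the 8 libraries, with an adjusted p of up to 0.139 (without DRF ZT12 replicate 3), and it was not made against NRF ZT0 (log2 difference 1.41, adjusted p = 0.282). It was also lost with a pseudocount of 0.1 TPM (adjusted p = 0.069), with no filter on low values (0.0621), with limma voom (0.0677) and without DRF ZT12 replicates 2 and 3 (0.473). Hamp was the 1 gene called of 10 of iron handling, beside 5.20% of all genes.

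**Figure D3:**
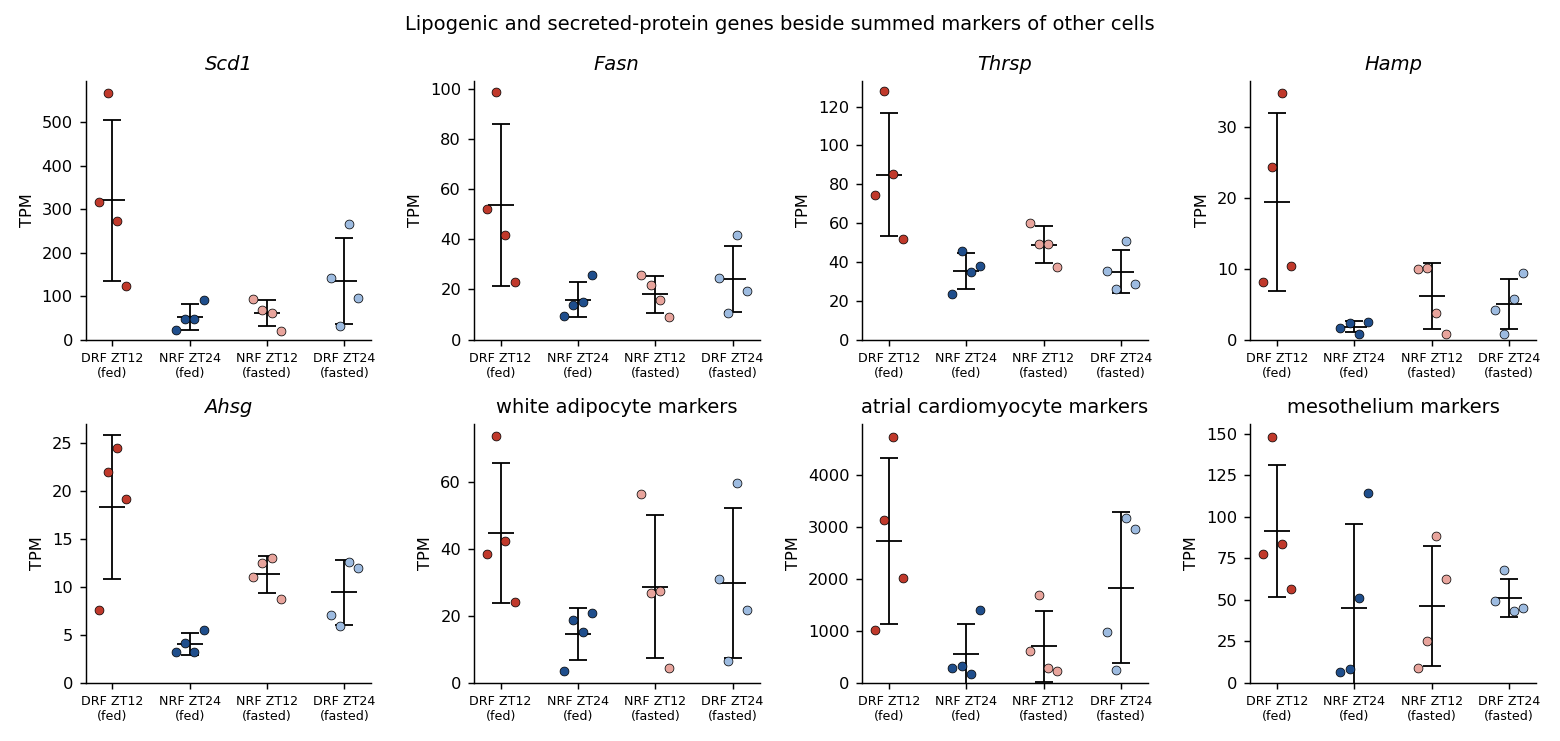
Levels in TPM (linear axes) of Scd1, Fasn, Thrsp, Hamp and Ahsg and the summed levels of white adipocyte, atrial cardiomyocyte and mesothelium markers are shown by library in the 4 groups, with bars at the mean and SD (SD bars that reach below 0 are cut at the axis). The DRF ZT12 libraries are the highest group for each gene, and white adipocyte markers range from 24 to 73.7 TPM there against 3.51 to 20.7 TPM in NRF ZT24.

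The called cholesterol genes were all lower, whereas the called lipogenic genes were all higher. Of 18 genes of cholesterol synthesis and uptake, 6 were lower in DRF ZT12, beside 2.80% of all genes, and none was higher, with a median log2 difference of -0.16. The synthesis enzymes Cyp51 (6.22 ± 0.486 against 8.43 ± 1.02 TPM, adjusted p = 0.00366) and Sqle (1.37 ± 0.348 against 2.05 ± 0.274 TPM, adjusted p = 0.0384) were lower, as were Msmo1 and Hmgcs1. The call of Cyp51 was lost when these 8 libraries were fitted alone (adjusted p = 0.0639) and without DRF ZT12 replicates 2 and 3 (0.128). The call of Sqle was lost without any 1 of 5 of the 8 libraries (adjusted p up to 0.147, without DRF ZT12 replicate 3), 3 of the 18 were lower when these 8 libraries were fitted alone, and 2 without DRF ZT12 replicates 2 and 3.

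Of 26 genes of fatty acid oxidation none was called between the food-matched hearts, a count too near the 5.20% of all genes to set the list apart, and their median log2 difference was -0.019. Acadm, the medium-chain dehydrogenase, measured 582 ± 27.5 against 533 ± 28.1 TPM (log2 difference 0.13 ± 0.06 SE, adjusted p = 0.274). Among 11 fasting-responsive targets of the nuclear receptor PPAR, 2 were lower, beside 2.80% of all genes, and none was higher, with a median of -0.38. With these 8 libraries fitted alone, or without DRF ZT12 replicates 2 and 3, 1 was lower. Cd36, the fatty acid transporter, stood at 667, 705, 765 and 753 TPM in DRF ZT12 and 1048, 1129, 890.5 and 918 TPM in NRF ZT24, lower without overlap (log2 difference -0.46 ± 0.09 SE, adjusted p = 0.00149). Plin5, which coats lipid droplets in the heart, was at 92.9 ± 7.03 against 132 ± 26.2 TPM (adjusted p = 0.0331), a call lost without any 1 of 6 libraries (adjusted p up to 0.166, without NRF ZT24 replicate 2).

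Of 16 insulin- and FOXO-responsive genes, 4 were higher in DRF ZT12, beside 2.39% of all genes, and their median was 0.12, with 2 called when these 8 libraries were fitted alone and 2 without DRF ZT12 replicates 2 and 3. Sesn1, a sestrin that restrains mTORC1, was at 77.7 ± 3.58 against 56.0 ± 6.81 TPM (adjusted p = 0.00223), and Eif4ebp1, a repressor of translation, was at 72.1 ± 4.03 against 54.0 ± 6.78 TPM (adjusted p = 0.00038). The Eif4ebp1 call was lost when these 8 libraries were fitted alone (adjusted p = 0.0517) and against NRF ZT0 (log2 difference 0.17, adjusted p = 0.16). Pik3ip1 (21.7 ± 1.01 against 13.9 ± 1.39 TPM, adjusted p = 0.023) and Pik3r1 (30.5 ± 4.39 against 21.8 ± 2.16 TPM, adjusted p = 0.0276), which both bear on PI3 kinase, lost their calls without any 1 of 6 and of 4 libraries (adjusted p up to 0.0602, without NRF ZT24 replicate 4, and 0.106, without DRF ZT12 replicate 1). Among 21 genes of glucose transport and glycolysis, where 1 call is near the 5.20% of all genes, Pfkfb3, which makes an activator of glycolysis, was the one called, at 6.28 ± 1.04 against 3.92 ± 0.855 TPM (adjusted p = 0.0339), likewise lost without any 1 of 6 (up to 0.138, without DRF ZT12 replicate 2).

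Nppb, the natriuretic peptide gene BNP, stood at 200.2, 244, 370.5 and 439 TPM in DRF ZT12 and at 768, 675, 1223 and 1160 TPM in NRF ZT24. Every DRF library was lower, by 3.05-fold on average (log2 difference -1.63 ± 0.34 SE, adjusted p = 0.00151). Tcap (telethonin), which anchors titin at the Z-disc, was the opposite, at 1826, 2242, 2197 and 2596 TPM against 955, 1303, 1005 and 924 TPM (log2 difference 1.08 ± 0.23 SE, adjusted p = 0.00199). Of the 18 sarcomere genes, Tcap and the M-band gene Myom2 (193 ± 5.46 against 136 ± 35.9 TPM, adjusted p = 0.0138, but 0.101 without NRF ZT24 replicate 3) were higher, beside 2.39% of all genes, and the other 16 were not called, with a median of -0.073. Fitted on these 8 libraries alone, or without DRF ZT12 replicates 2 and 3, 1 of the 18 was called.

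Among 21 potassium, sodium and pacemaker channel genes, 1 was called, a share near the 5.20% of all genes. Kcnk3 (TASK-1) was lower (116 ± 7.00 against 157 ± 13.3 TPM, log2 difference -0.43 ± 0.07 SE, adjusted p = 6.78e-05). Of 15 calcium handling genes 2 were lower, beside 2.80% of all genes, Slc8a1 (the sodium-calcium exchanger, adjusted p = 0.0282) and Jph2 (junctophilin, adjusted p = 0.0188), each lost without any 1 of 4 libraries (adjusted p up to 0.128, without DRF ZT12 replicate 3, and 0.11, without NRF ZT24 replicate 1). With these 8 libraries fitted alone, and likewise without DRF ZT12 replicates 2 and 3, none of the calcium list was called. Of 14 beta-adrenergic genes 2 were lower, beside the same share, and 1 in either of those settings. Grk5, a kinase that desensitizes receptors, was at 26.8 ± 4.88 against 44.8 ± 3.31 TPM (log2 difference -0.73, adjusted p = 1.74e-05), and Prkar1a, a regulatory subunit of protein kinase A, at 235 ± 11.2 against 287 ± 32.8 TPM (adjusted p = 0.00633, but 0.0819 without NRF ZT24 replicate 1).

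None was called among 81 cytosolic ribosomal protein genes, 82 respiratory chain subunits, 13 mitochondrially encoded genes, 20 heat shock chaperones, 12 Kruppel-like factors, 16 immediate early genes, 18 cell cycle genes, 16 autophagy genes and 14 regulators of the PGC-1 and PPAR group, against the 5.20% called among all genes. Under other scalings some of these counts were not 0. Over all genes the calls were 1178 after median-of-ratios rescaling, 1225 with limma voom and 820 in TPM without mitochondrially encoded genes, not 721. Median-of-ratios rescaling called 3 heat shock chaperones, 2 cell cycle genes and 1 immediate early gene, limma voom called 2 Kruppel-like factors, and TPM without mitochondrially encoded genes called 1 ribosomal protein gene and 1 of the PGC-1 and PPAR group. The medians of these lists ran from -0.13 in the immediate early genes to 0.31 in the cell cycle genes. The chaperone Hspa8, for example, measured 669.9 ± 193 against 663 ± 37.0 TPM (log2 difference -0.02 ± 0.16 SE), and Klf9, a target of the clock and of glucocorticoids, 82.4 ± 6.14 against 62.7 ± 14.5 TPM (adjusted p = 0.0904). Of 20 ER chaperone and unfolded protein response genes, Herpud1 of ER-associated degradation was higher (170.1 ± 18.8 against 108 ± 18.2 TPM, adjusted p = 0.000902). Rbm3, one of the 2 cold-inducible RNA binding protein genes, was at 30.3 ± 2.55 against 20.1 ± 1.15 TPM (adjusted p = 0.0333, up to 0.126 without DRF ZT12 replicate 2). In the NRF2 list of 12 genes, Gsta3 was higher (16.5 ± 1.55 against 10.4 ± 1.60 TPM, adjusted p = 0.00691, but 0.192 without DRF ZT12 replicates 2 and 3) and Txnrd1 lower (adjusted p = 0.0283, up to 0.166 without DRF ZT12 replicate 3). Psat1 of serine synthesis was higher among 11 amino acid stress genes (adjusted p = 0.0205, up to 0.124 without DRF ZT12 replicate 2), and Aars was lower among 20 aminoacyl-tRNA synthetases (adjusted p = 0.0359, up to 0.159 without DRF ZT12 replicate 3).

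**Figure D4:**
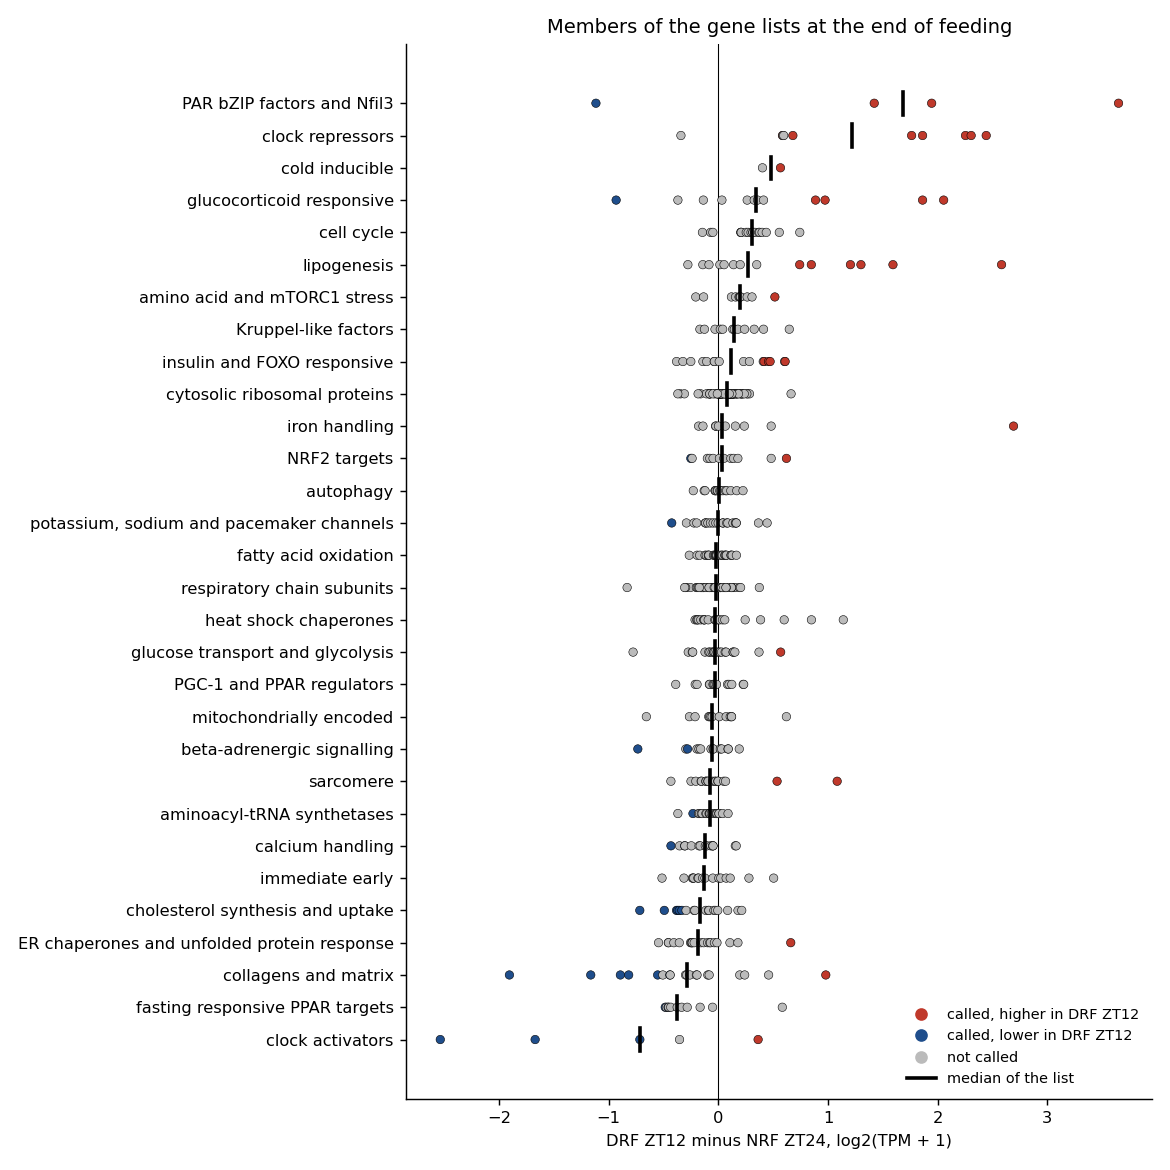
Each point is the difference DRF ZT12 minus NRF ZT24 (log2 of TPM + 1, horizontal axis) of 1 gene on the named list, coloured where called, and the black bar is the median of the list. The clock lists hold the widest range, from -2.54 for Arntl to 3.65 for Dbp, and most other medians lie near 0.

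The same ZT comparison at the end of the fast asked whether the differences appear in libraries of the other feeding state. Between NRF ZT12 and DRF ZT24, 1902 genes differed, 13.7% of those tested, 1454 of them higher (10.5%) and 448 lower (3.23%) in NRF ZT12. After median-of-ratios rescaling the higher share of the calls was 56.1% in place of 76.4%, and the count was 1255 without NRF ZT12 replicate 2 and 1129 without DRF ZT24 replicate 3. Genes called in the same direction in both comparisons numbered 348 (2.51% of the genes tested), 191 higher and 157 lower at ZT12, which were 48.3% of the fed calls and 18.3% of the fasted calls. Of the 332 genes called higher when fed, 295 (88.9%) had a higher level at ZT12 when fasted at any p, beside 62.3% of all genes, and of the 389 called lower, 332 (85.3%) had a lower one, beside 37.7% of all genes.

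The clock genes with the largest differences kept their direction in fasted hearts. Arntl was at 0.268 ± 0.147 TPM in NRF ZT12 and 8.99 ± 1.29 TPM in DRF ZT24 (log2 difference -2.98, adjusted p = 3.43e-13), beside -2.54 when fed. Dbp was at 146 ± 21.7 and 6.75 ± 3.46 TPM (log2 difference 4.32, adjusted p = 2.22e-10), beside 3.65 when fed. For Arntl and Dbp the difference between the 2 comparisons was 0.44 ± 0.33 and -0.67 ± 0.60 (SE) and did not pass the test (adjusted p = 0.613 and 0.692). All 10 repressors were higher and 3 of 5 activators lower at ZT12 in fasted hearts, beside 10.5% and 3.23% of all genes. Cry1 was among them (log2 difference 0.47, adjusted p = 0.0389), although its fed difference was -0.34 and not called, and the difference of the 2 did not pass the test (adjusted p = 0.0583). Rora differed by 0.36 when fed and 0.25 when fasted, and the difference of the 2 did not pass the test (0.11 ± 0.14 SE, adjusted p = 0.812). Spon2 differed by -2.52 when fed and -2.51 when fasted, Tef by 1.94 and 1.93, and Timp3 by 0.98 and 1.01.

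Other large differences were not called in fasted hearts. Scd1 measured 60.6 ± 30.3 TPM in NRF ZT12 and 134 ± 98.8 TPM in DRF ZT24 (log2 difference -0.96, adjusted p = 0.389), Fasn 18.1 ± 7.35 and 24.1 ± 13.2 TPM (adjusted p = 0.72), Hamp 6.17 ± 4.64 and 5.04 ± 3.55 TPM (adjusted p = 0.93) and Fbn1 18.6 ± 2.65 and 23.6 ± 3.98 TPM (adjusted p = 0.257). The difference between the comparisons did not pass the test for these 4 genes, with adjusted p = 0.0526 for Scd1, 0.163 for Fasn, 0.335 for Hamp and 0.096 for Fbn1, so a dependence on the comparison is not shown for them.

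**Figure D5:**
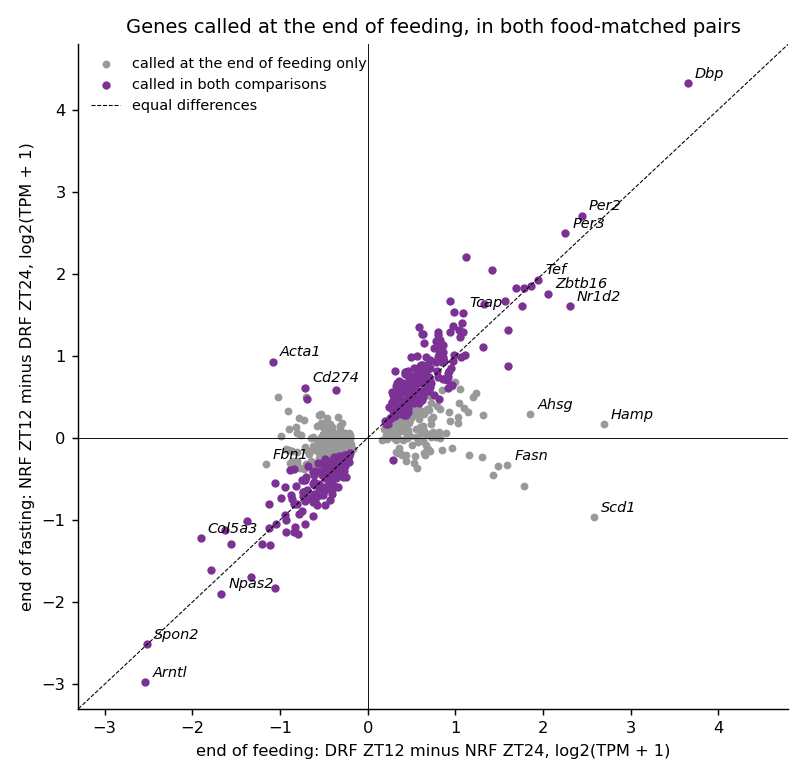
Each of the 721 genes called at the end of feeding is placed by its difference DRF ZT12 minus NRF ZT24 (horizontal) and NRF ZT12 minus DRF ZT24 (vertical), both in log2 of TPM + 1. Purple points are also called at the end of fasting, the dashed line marks equal differences, and Dbp, Per2, Spon2 and Arntl lie near it while Scd1 and Hamp lie far from it.

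A direct test of the difference between the comparisons called 136 genes (0.980%), 28 with a higher and 108 with a lower value in the fed one. This contrast equals both DRF groups minus both NRF groups, so a ZT difference that depends on feeding state and a plain regimen difference cannot be told apart. The count ranged from 37 to 292 when 1 library was left out. It was 63, 37 and 292 without DRF ZT12 replicates 1, 3 and 4, and 54, 84 and 281 without NRF ZT24 replicates 2, 3 and 4. It was 78, 66 and 65 without NRF ZT12 replicates 1, 2 and 3, and 86 and 38 without DRF ZT24 replicates 1 and 3. Ciart had the largest such difference among the named genes called in this test. It was at 3.35, 3.15, 3.57 and 3.64 TPM in DRF ZT12 against 2.74, 2.74, 1.36 and 1.22 TPM in NRF ZT24, but at 19.8 ± 3.89 against 1.12 ± 0.269 TPM in fasted hearts (log2 difference 3.28). The fed difference (log2 difference 0.60, adjusted p = 0.393) did not pass the test, and it was smaller than the fasted one by 2.69 ± 0.50 (SE, log2, adjusted p = 0.00444), a call that held without any 1 library. Bhlhe41 (difference -0.76, adjusted p = 0.0482) and Myom2 (0.76, adjusted p = 0.043) also passed, but each of these calls was lost without any 1 of 13 of the 16 libraries (adjusted p up to 0.144, without DRF ZT12 replicate 3, and 0.135, without NRF ZT24 replicate 3).

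Of the 353 genes called in both comparisons, 5 differed in opposite directions, and they are named here after their values were seen. Acta1, the skeletal actin gene that the heart expresses at low level after birth, stood at 288, 197, 134 and 279 TPM in DRF ZT12 and 455, 532, 451 and 391 TPM in NRF ZT24 (log2 difference -1.08, adjusted p = 0.0395), and at 336 ± 109 and 182 ± 71.6 TPM in the fasted groups (0.93, adjusted p = 0.0466). The difference of the 2 was -2.01 ± 0.46 (SE, adjusted p = 0.0195), a call lost without any 1 of 4 of the 16 libraries (adjusted p up to 0.0841, without DRF ZT24 replicate 3). Cd274 (PD-L1) gave -0.71 and 0.61 and the interferon-induced Ifi44 -0.69 and 0.47, and the predicted genes Gm49477 (0.29 and -0.26) and Gm9905 (-0.36 and 0.58) were the others. Cd274 was at 21.7 TPM in NRF ZT24 replicate 2 against 7.39 to 9.83 TPM in the rest of its group, and without that library its fed call and the call of its difference between the comparisons were lost (adjusted p = 0.276 and 0.0508). The Acta1 fed call was lost without any 1 of 5 libraries (adjusted p up to 0.177, without DRF ZT12 replicate 3), and that of Ifi44 without DRF ZT12 replicate 3 (0.0537).

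Feeding state was compared over the same 4 groups, and this comparison shares the DRF ZT12 and NRF ZT24 libraries with the first. The mean of DRF ZT12 and NRF ZT24 was set against the mean of NRF ZT12 and DRF ZT24, and 2413 genes differed (17.4%), 737 higher and 1676 lower at the end of feeding. After median-of-ratios rescaling 50.5% of the calls were higher, in place of 30.5%. The 5 genes named next were chosen for a difference under 0.2 log2 between DRF ZT12 and NRF ZT24. Their likeness between the fed groups therefore restates the choice. Tfrc, the transferrin receptor that brings iron into cells, stood at 52.5, 45.5, 47.9 and 57.1 TPM in DRF ZT12 and 52.4, 63.8, 61.6 and 52.9 TPM in NRF ZT24. These overlapped (log2 difference -0.18 ± 0.26 SE, 95% interval -0.70 to 0.34, adjusted p = 0.793), while the fasted groups were at 16.6 ± 1.94 and 16.3 ± 6.87 TPM (end of feeding minus end of fasting 1.7, adjusted p = 1.21e-08). Hspb3, a small heat shock protein gene of muscle, had the same pattern, at 27.8 ± 1.56 and 29.9 ± 4.30 TPM when fed and 15.6 ± 1.73 and 15.5 ± 1.69 TPM when fasted (0.85, adjusted p = 4.63e-06). The chemokine genes Ccl7 (0.83, adjusted p = 0.00104) and Ccl12 (0.84, adjusted p = 0.00267) were higher when fed. Ccl12 was at 12.9 ± 2.13 and 13.1 ± 2.18 TPM in the fed groups, but at 10.9 ± 2.73 TPM in NRF ZT12 and 4.74 ± 2.85 TPM in DRF ZT24, and these fasted groups themselves differed (log2 difference 1.18, adjusted p = 0.00332). Gadd45b, a stress-induced gene, was lower (-0.81, adjusted p = 0.000402).

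The gene lists were also counted for feeding state, where 17.4% of all 13872 genes were called (737 higher and 1676 lower). Heat shock chaperones had 11 of 20 called higher at the end of feeding, ER chaperones and unfolded protein response genes 12 of 20 higher and 1 lower, and cholesterol genes 10 of 18 higher and 1 lower. Fatty acid oxidation genes had 15 of 26 called lower, insulin- and FOXO-responsive genes 12 of 16 lower, and genes of glycolysis 8 of 21 lower. Glucocorticoid-responsive genes had 7 of 12 lower, PPAR targets 6 of 11 lower, and clock repressors 6 of 10 lower and 1 higher. After median-of-ratios rescaling 9 of the 26 oxidation genes were lower. Without DRF ZT12 replicates 2 and 3 the counts were 10 for oxidation, 7 higher for the ER list and 5 lower for glycolysis. Over all genes 1658 were higher and 1625 lower after that rescaling, and 559 and 1041 without these replicates. The autophagy receptor gene Sqstm1 stood at 164 ± 7.03 and 169 ± 27.0 TPM in the fed groups and 272 ± 11.1 and 273 ± 27.7 TPM in the fasted ones (-0.71, adjusted p = 3.07e-12).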

How the data were processed

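PolyA RNA of mouse hearts was sequenced as paired 150-base reads, 4 libraries for each of 14 combinations of regimen and ZT. The submitters' processing notes name HISAT2 2.0.5, featureCounts 1.5.0-p3 and mm10. The annotation release and strand setting are not given in the sources used here. The authors named the deposited values TPM, but they are another scale: a library constant times log2(1 + scaled reads) divided by exon length. Whole reads were recovered from their steps with GENCODE M21 exon lengths. Of 1197150 values under 100000 reads, 99.9996% lay within 0.1 of a whole read. The annotated length served 22012 of 22864 genes and a searched length 831, of which 796 lay on chromosomes 17 to 19. For these 831 genes the recovered reads, and so TPM levels and differences, rest on the searched length. Another 20 abundant genes kept the annotated length, and 1 was not resolved. Each gene in the table had reads in 20 or more libraries. TPM was recomputed from these reads.

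Genes averaging 1 TPM or more were tested on log2(TPM + 1) with limma 3.58.1 in R 4.3.3 (14 group means over all 56 libraries, trended empirical Bayes, Benjamini-Hochberg adjusted p under 0.05). Values are mean ± SD of 4 libraries. On data simulated for DRF ZT12 against NRF ZT24 and on simulated deposited values, the test and the recovery were checked first. Summed markers, depth and composition (19 measures) had exact two-sided permutation tests (70 splits). Genes were named as follows: the 10 largest called differences in each direction without overlap of libraries (predicted gene models and further members of a paralog family not named), all members of the clock lists, up to 4 members of each other list (the largest called or, with none called, the most abundant), and the 5 largest feeding-state differences under 0.2 log2 between DRF ZT12 and NRF ZT24. Other genes are mentioned as list members or as stated, and some genes that the rule covers are not reported here. The members and gene lists were chosen with earlier results of these data known. Nothing in the labels says that replicates were separate animals, so p-values measure the spread between these libraries, and PCR duplicates count as reads. The labels give no batch. Alternatives were another pseudocount, filter, scaling, test, threshold, set of libraries, reference group and replicate block. Leaving out DRF ZT12 replicates 2 and 3 together was added after seeing the data, for their atrial markers.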

Additional observations from a re-analysis of the deposited data

Results flagged for a closer look

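In 12 of 186 sets of 4 libraries examined, 1 library stood apart from the other 3 by Dixon's test at its 95% critical value. Chance gives about 1 in 20, or 9.3. Among genes these were Nr1d2 in DRF ZT12 replicate 3 (48.3 TPM), Prkar1a in DRF ZT12 replicate 4 (252 TPM), Rbm3 in DRF ZT12 replicate 2 (34.1 TPM), Hsp90ab1 in DRF ZT12 replicate 4 (1176 TPM), and Pfkfb3 (5.20 TPM), Gsta3 (12.8 TPM) and Cd274 (21.7 TPM) in NRF ZT24 replicate 2. Among library measures they were the share of mitochondrially encoded reads (18.2%) and of the 10 most abundant genes (21.3%) in NRF ZT24 replicate 2, the summed atrial markers in NRF ZT24 replicate 4 (1407 TPM), the summed smooth muscle and pericyte markers in NRF ZT24 replicate 3 (841 TPM) and the summed nerve and Schwann cell markers in DRF ZT12 replicate 2 (10.7 TPM). NRF ZT24 replicate 2 thus accounts for 5 of the 12.

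For 6 named genes the difference between ZT12 and ZT24 itself differed between the fed and the fasted comparison (limma, adjusted p under 0.05). The fed difference minus the fasted one was -2.69 for Ciart, -0.76 for Bhlhe41, 0.76 for Myom2, -2.01 for Acta1, -1.32 for Cd274 and -1.16 for Ifi44, in log2 units. This equals both DRF groups minus both NRF groups, so dependence on feeding state and a plain regimen difference cannot be told apart. Acta1, for example, was at 224 and 182 TPM in DRF and at 336 and 457 TPM in NRF (ZT12 and ZT24). Acta1, Cd274 and Ifi44 were named because they were called in opposite directions in the comparisons, so for them this test restates the choice. Ciart and Ifi44 kept this call without any 1 library.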

How the results depend on the processing

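Of the named genes called between DRF ZT12 and NRF ZT24, 60 were followed through the alternatives, and none of them changed direction in any. Of these 60 genes, 32 were called in every alternative in which they were tested (Npas2, Fam124b and Adamts4 were not tested at a mean of at least 5 TPM) and 28 were lost in at least 1. Other called genes that the text mentions were not followed: Fkbp5, Lum, Kdr, Acly, Acaca, Msmo1, Hmgcs1, Gm49477 and Gm9905. For DRF ZT12 against NRF ZT24, the 721 calls became 340 with only the libraries compared, 1178 after median-of-ratios rescaling, 1225 with limma voom on recovered reads, 322 at an adjusted p under 0.01, 1325 against NRF ZT0 and 212 without DRF ZT12 replicates 2 and 3, and 408 to 713 without 1 library. For the fasted pair, 1902 became 947 at 0.01 and 1129 to 1938 without 1 library, and its share of higher calls, 76.4%, was 56.3% with voom, 66.3% with the deposited values and 65.2% without mitochondrially encoded genes. Calls in both pairs, 348, became 208 with only the libraries compared, 587 after rescaling, 604 with voom, 168 at 0.01, 148 without DRF ZT12 replicates 2 and 3, and 238 to 330 without 1 library. The difference between the pairs, 136 genes, became 54, 283, 315 and, with the deposited values, 271, then 19 at 0.01, 12 without DRF ZT12 replicates 2 and 3, and 37 to 292 without 1 library. Feeding state, 2413 genes, became 1188 at 0.01, 1600 without DRF ZT12 replicates 2 and 3, and 1868 to 2613 without 1 library. Fewer libraries or a stricter threshold make up some of these alternatives, and for the others the cause was not tested. Replicate numbers were not taken as pairs, since in none of the 6 pairs of groups did every same-numbered pair correlate above 0.1: DRF ZT12 and NRF ZT24 gave 0.22, -0.10, -0.08 and -0.31, and the highest, DRF ZT12 and DRF ZT24, gave 0.18, -0.06, 0.27 and 0.18. With the replicate block the counts were 724, 1907, 352, 129 and 2393. Genes near the 1 TPM limit carry the fewest reads, and the 4 libraries a group limit what small differences can be called.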
